A study of Homo sapiens with 12 samples.

Results

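Fibronectin and a group of integrin subunits, receptors for fibronectin and other matrix proteins, were followed in HUH6 cells, a human hepatoblastoma line, after silencing of the transcription factor GATA4. The 10 genes were FN1, which encodes fibronectin, and the integrin subunit genes ITGA1, ITGA2, ITGA3, ITGA5, ITGA6, ITGAV, ITGB1, ITGB4 and ITGB5, out of 20045 genes that the array annotation names. They were chosen by name, and every array probe annotated to them was taken, which gave 25 probes. Of these probes, 14 were detected on at least 6 of the 12 arrays (detection p under 0.01) and were tested, and they covered 9 of the 10 genes. All 4 probes of ITGB4 were at background on every array.

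One group of cells received a pool of 4 siRNAs against GATA4 and the other a non-targeting (NT) siRNA, both at 0.1 uM in a lipid reagent for 6 h, and RNA was taken at 72 h. Each group had 6 arrays, numbered as replicates 1 to 6 in both. All arrays hold the same parental line, the siRNAs were used only as a pool, and the labels do not say which replicates were separate cultures, so the p-values speak only for the spread among these 12 arrays. The labels give no reason for a difference between replicates 4 to 6 and replicates 1 to 3, and these sets were known from earlier results of the same data.

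Fibronectin is a large secreted glycoprotein that cells assemble into fibrils of the extracellular matrix, and the liver also releases it into plasma. Integrins are membrane receptors made of an alpha and a beta subunit, which hold the matrix on the outside and link to actin and kinase signalling on the inside. ITGA5 with ITGB1 is the classical fibronectin receptor, ITGAV with ITGB5 or ITGB1 recognises RGD sequences in vitronectin and fibronectin, ITGA1 and ITGA2 with ITGB1 bind collagens, and ITGA3 and ITGA6 bind laminins. ITGB4 pairs with ITGA6 in the hemidesmosomes of epithelia.

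The GATA4 probe checked the labels. It was detected on 0 of the 6 arrays after GATA4 siRNA, with 108.3 to 119.3 raw units, and on 6 of 6 after NT siRNA, with 137.1 to 168.8. GATA4 siRNA arrays were at least 1.19-fold lower on average, a bound taken from the lowest detected signals and not itself tested. The fitted log2 change, which includes undetected signals, was -1.20 (limma adjusted p = 0.00122 without a block). The probe met the detection filter only through the NT siRNA arrays, so this call is partly fixed by the filter. Between 16120 and 16804 probes were detected on GATA4 siRNA arrays and between 16067 and 16617 on NT siRNA arrays. Of 10 hepatoblast and hepatoblastoma markers, 8 were detected on at least 6 arrays, while DLK1 was detected on none. Fibroblasts are a rich source of fibronectin: 4 of 10 fibroblast and stellate cell markers were detected, and COL3A1, DCN, LUM, THY1 and DES were detected on no array. The mean log2 level over that marker list was 6.12 to 6.34 on GATA4 siRNA arrays and 6.06 to 6.29 on NT siRNA arrays. In these bulk samples, fewer cells with a transcript and less transcript per cell cannot be told apart.

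FN1 fell after GATA4 siRNA, and it was the 1 of the 9 tested members that passed the test without a replicate block. With replicate number as a block, FN1 and ITGA6 fell. Over all 10196 tested genes, 0.51% were called lower and 0.196% higher without the block, and 3.77% lower and 2.65% higher with it. No member was called higher in either fit, where limma gave an unadjusted p under 0.05 to 1 member without the block and to 3 with it. The median log2 change of the 9 members was -0.0097, beside 0.0020 over all tested genes.

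The promoter windows of both genes are shown because these were the 2 members called lower. They run from 250 bases before to 50 bases after an annotated start in RefSeq, build GRCh38.p14, and are written 5′ to 3′ on the gene's own strand. Capitals mark matches to a motif searched for on both strands. The GATA motif was searched as the hexamer AGATAA, the hexamer AGATAG, the hexamer TGATAA and the hexamer TGATAG. The cAMP response element, known from the FN1 promoter, was searched as TGACGTCA, which reads the same on both strands. The FN1 window lies on the minus strand of chromosome 2 at chr2:215436019-215436318. The pair of ITGA6 windows lie on the plus strand at chr2:172427086-172427385 and at chr2:172427336-172427635 and share their overlapping bases.
FN1: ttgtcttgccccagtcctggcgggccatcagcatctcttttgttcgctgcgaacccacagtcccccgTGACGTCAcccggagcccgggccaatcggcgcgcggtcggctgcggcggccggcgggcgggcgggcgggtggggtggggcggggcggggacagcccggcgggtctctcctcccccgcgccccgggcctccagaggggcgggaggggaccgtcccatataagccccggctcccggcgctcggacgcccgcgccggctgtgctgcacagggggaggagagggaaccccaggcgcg
ITGA6, upstream start: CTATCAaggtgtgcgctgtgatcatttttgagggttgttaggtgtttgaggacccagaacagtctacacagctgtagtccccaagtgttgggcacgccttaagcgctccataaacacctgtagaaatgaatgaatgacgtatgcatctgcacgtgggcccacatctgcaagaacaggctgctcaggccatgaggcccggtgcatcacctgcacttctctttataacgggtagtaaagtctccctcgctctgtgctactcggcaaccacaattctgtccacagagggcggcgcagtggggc
ITGA6, downstream start: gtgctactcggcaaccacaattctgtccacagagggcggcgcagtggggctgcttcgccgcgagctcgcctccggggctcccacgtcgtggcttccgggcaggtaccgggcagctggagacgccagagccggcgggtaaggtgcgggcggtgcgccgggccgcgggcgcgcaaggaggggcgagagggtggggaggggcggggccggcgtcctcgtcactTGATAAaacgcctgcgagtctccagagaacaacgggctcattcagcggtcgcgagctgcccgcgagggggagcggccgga

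The FN1 window held the cAMP response element with its first base at -183 from the start, and these letters of the GATA hexamers were not in the window. The ITGA6 windows held a GATA hexamer that began at -250 from the upstream start and another that began at -30 from the downstream start. Among 13 windows of the 8 members that matched the RefSeq table, 4 held a GATA hexamer; the other 2 belonged to ITGAV and ITGB1. Across all 35116 windows of this length in the table, 24.97% held a GATA hexamer and 1.848% the cAMP response element. A match is a run of letters and shows no binding.

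FN1 was measured at 3 tested probes, each annotated to a different FN1 transcript, and all 3 were detected on 12 of 12 arrays. At the brightest, ILMN_1778237, raw signals ran from 259.7 to 363.0 after GATA4 siRNA and from 367.5 to 550.3 after NT siRNA. On the normalised log2 scale (background-corrected and quantile normalised) the GATA4 siRNA arrays had a low of 7.09, a median of 7.58 and a high of 8.02, against 8.08, 8.38 and 8.78 on the NT siRNA arrays. Every GATA4 siRNA array lay below every NT siRNA array, which was true of 1.11% of tested genes in this direction. The mean was 7.56 ± 0.31 after GATA4 siRNA and 8.40 ± 0.28 after NT siRNA (SD, n = 6 each). The level was thus 1.78-fold lower (log2 change -0.83, SE 0.15, limma adjusted p = 0.0203). With the block, the same change had an SE of 0.081 and an adjusted p of 6.14e-07.

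The second probe, ILMN_2366463, showed the same separation. Its log2 signals had a low of 7.24, a median of 7.35 and a high of 7.61 after GATA4 siRNA, against 7.89, 8.10 and 8.51 after NT siRNA. The change was -0.77 (SE 0.11), and in the fit of all 16339 tested probes its adjusted p was 0.00234 without the block and 1.05e-05 with it.

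The third probe, ILMN_1675646, was dimmer and its groups overlapped. It had a low of 5.75, a median of 6.59 and a high of 6.95 after GATA4 siRNA, against 6.92, 7.23 and 7.73 after NT siRNA. The overlap came from GATA4 siRNA replicates 1 and 3, at 6.95 and 6.93, beside NT siRNA replicate 5, at 6.92. Its change was -0.84 with an adjusted p of 0.123 without the block and 4.62e-04 with it. Compared by replicate number, all 3 FN1 probes were lower after GATA4 siRNA in 6 of 6 pairs. They were lower by 0.56 to 1.21, 0.58 to 1.23 and 0.34 to 1.41 on the log2 scale in the order given. The groups were apart at ILMN_1778237 and ILMN_2366463, and within each set at ILMN_1675646. Any pairing within sets thus gives this count, and it adds nothing to the separation.

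**Figure D1:**
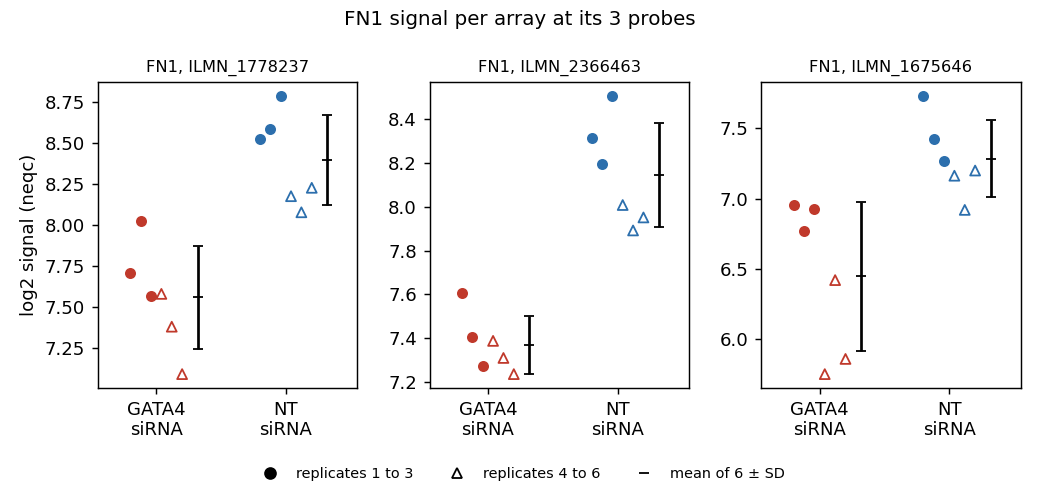
Normalised log2 signal of the 3 FN1 probes on each array, GATA4 siRNA in red at the left and NT siRNA in blue at the right; filled circles are replicates 1 to 3, open triangles replicates 4 to 6, and bars the mean ± SD of 6 arrays. The groups are apart at ILMN_1778237 and ILMN_2366463 and meet near 6.9 at ILMN_1675646.

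The fall of FN1 was found in each set of arrays fitted alone. Within replicates 4 to 6, ILMN_1778237 read 7.58, 7.38 and 7.09 after GATA4 siRNA and 8.18, 8.08 and 8.23 after NT siRNA, a log2 change of -0.81 (adjusted p = 1.99e-04). Within replicates 1 to 3 it read 7.71, 8.02 and 7.57 after GATA4 siRNA and 8.52, 8.58 and 8.78 after NT siRNA, a change of -0.86 (adjusted p = 3.30e-04). Both sets were apart by siRNA at this probe, and their changes differed by 0.054 (95% interval -0.28 to 0.39). Among all genes, 3.35% were called lower within replicates 4 to 6 and 1.05% within replicates 1 to 3. The third probe fell by 1.08 in replicates 4 to 6 and by 0.59 in replicates 1 to 3; this difference had an unadjusted p of 0.0333 and an adjusted p of 0.569.

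Without the block, the FN1 call ended when any of 4 arrays was left out: NT siRNA replicate 1, 2 or 3 or GATA4 siRNA replicate 5. The change was then between -0.81 and -0.76, with adjusted p from 0.0514 to 0.0579. With the block, FN1 passed with each of the 6 pairs left out, at an adjusted p of at most 5.82e-06. In the authors' deposited normalised values, which carry no background correction, the change of ILMN_1778237 was -0.60 and that of ILMN_1675646 was -0.44.

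ITGA6, an alpha subunit of laminin receptors, was not called in the comparison of all arrays without a block, and was called lower with the replicate block. Its tested probe, ILMN_2359287, lay close to background, at 142.0 to 195.4 raw units after GATA4 siRNA and 149.7 to 206.8 after NT siRNA, and it was undetected on GATA4 siRNA replicate 2. The log2 signals had a low of 5.41, a median of 6.06 and a high of 6.35 after GATA4 siRNA, against 5.82, 6.44 and 6.88 after NT siRNA. The groups overlapped. The change was -0.45 (1.37-fold lower), with an SE of 0.22 and an adjusted p of 0.555 without the block, and an SE of 0.12 and an adjusted p of 0.0285 with it.

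The ITGA6 values differed by set. In replicates 4 to 6 the probe read 5.91, 6.25 and 6.35 after GATA4 siRNA and 6.88, 6.76 and 6.79 after NT siRNA, with no overlap and a change of -0.64 (adjusted p = 0.00932). In replicates 1 to 3 it read 5.54, 5.41 and 6.20 after GATA4 siRNA and 6.12, 5.82 and 6.00 after NT siRNA, with overlap and a change of -0.26 (adjusted p = 0.588). The pair of replicate 3 ran the other way, with GATA4 siRNA higher by 0.21. The difference between the sets' changes was -0.38 (95% interval -0.89 to 0.13, adjusted p = 0.677), so a difference between sets was not shown. With the block, the call held when pair 3 was left out (-0.58, adjusted p = 0.00383) and ended when pair 1, 2, 4, 5 or 6 was left out (adjusted p up to 0.139). The other ITGA6 probes, ILMN_1687974 and ILMN_2267488, were at background on all arrays (100.6 to 129.2 raw units), so no second probe speaks for this gene. In the authors' deposited normalised values the change was -0.20.

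ITGA3, the other laminin-binding alpha subunit, ran in the opposite direction without passing. Its tested probe averaged 7.42 ± 0.68 after GATA4 siRNA and 7.19 ± 0.71 after NT siRNA on the log2 scale (SD, n = 6 each). GATA4 siRNA was higher in 6 of 6 pairs, by 0.0012 to 0.36, and the change of 0.23 had an adjusted p of 0.934 without the block and 0.0768 with it (95% interval 0.074 to 0.39 with the block). The siRNA groups overlapped within each set, so the count of pairs rests on the assumed matching by replicate number. A second ITGA3 probe, ILMN_1654074, was at background on all arrays.

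The fibronectin-binding subunits showed no called change at their genes' brightest probes. ITGA5 averaged 7.98 ± 0.60 after GATA4 siRNA and 7.99 ± 0.55 after NT siRNA, a change of -0.0097 with a 95% interval of -0.14 to 0.12 in the blocked fit. ITGAV averaged 10.07 ± 0.17 after GATA4 siRNA and 10.06 ± 0.12 after NT siRNA, and its interval with the block was -0.11 to 0.12. Without the block the intervals were wider, -0.62 to 0.60 for ITGA5 and -0.17 to 0.18 for ITGAV. For both genes the interval leaves out the size of the fall of FN1 with and without the block, and the narrower blocked interval rests on replicate number as a block.

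ITGB1, the shared beta subunit, had 2 tested probes that did not behave alike. ILMN_1723467, with raw signals of 4512.0 to 6664.4 after GATA4 siRNA and 5185.8 to 6236.1 after NT siRNA, changed by -0.043 (blocked 95% interval -0.13 to 0.044). ILMN_1714820, annotated to another ITGB1 transcript, changed by -0.15 (adjusted p = 0.595 without the block and 0.236 with it). In replicates 4 to 6 this probe read 10.18, 10.04 and 10.18 after GATA4 siRNA and 10.13, 10.13 and 10.03 after NT siRNA. In replicates 1 to 3 it read 9.75, 9.88 and 10.06 after GATA4 siRNA, all below the 10.28, 10.12 and 10.30 after NT siRNA, a change of -0.33 (adjusted p = 0.0702). The difference between sets had an unadjusted p of 0.00235 and an adjusted p of 0.324. A further 2 ITGB1 probes, ILMN_1784454 and ILMN_1754233, were at background.

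ITGB5, the vitronectin receptor partner of ITGAV, had 3 tested probes. Their changes were 0.024 for ILMN_1668374, 0.11 for ILMN_2311166 and -0.0035 for ILMN_1796755. ILMN_2311166 was higher after GATA4 siRNA in 6 of 6 pairs, by 0.0047 to 0.30, with an adjusted p of 0.549 without the block and 0.186 with it. The other probes had mixed signs over the pairs, and 2 more ITGB5 probes were at background.

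The collagen receptor subunits did not pass. ITGA1 averaged 5.34 ± 0.51 after GATA4 siRNA and 5.27 ± 0.45 after NT siRNA, was higher in 3 of 6 pairs, and was detected on 3 arrays of each group. ITGA2 averaged 7.03 ± 0.48 after GATA4 siRNA and 7.16 ± 0.34 after NT siRNA, a change of -0.13 (blocked 95% interval -0.31 to 0.051). ITGB4 gave no level: its 4 probes read 105.1 to 136.1 raw units after GATA4 siRNA and 98.0 to 122.0 after NT siRNA, with the lowest detection p on any array at 0.0403.

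**Figure D2:**
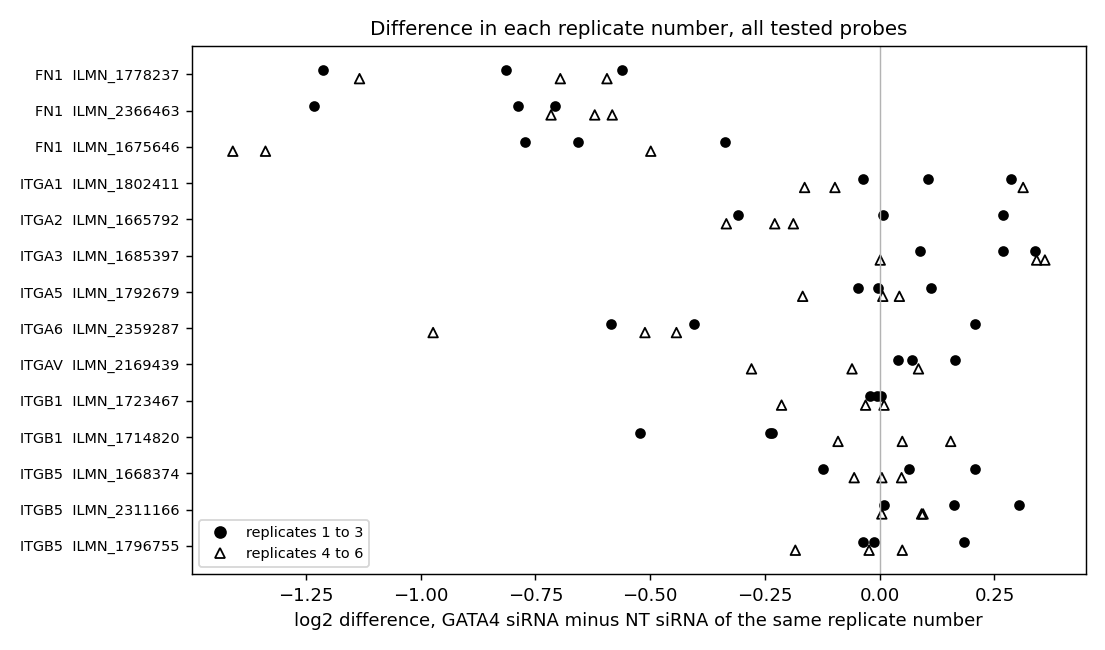
Log2 difference between the GATA4 siRNA and the NT siRNA array of the same replicate number at each of the 14 tested probes; filled circles are replicates 1 to 3 and open triangles replicates 4 to 6. All points of the 3 FN1 probes lie left of 0, ITGA6 has 1 point to the right, and ITGA3 has all 6 points at or right of 0.

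Over all 14 tested probes of the members, 2 were called lower without the block, both of FN1, where 0.41% of tested probes were. With the block 4 were called lower, 3 of FN1 and 1 of ITGA6, where 3.16% of tested probes were. No probe was called in the other direction. Where a gene had several tested probes, FN1 had the same direction at all 3, ITGB1 at both, and ITGB5 at 2 of 3.

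The change after GATA4 siRNA did not pass a test of difference between the sets for any of the 9 members or for any gene (0% called, with 901 genes at an unadjusted p under 0.05). Of the 9 members, 0 had an unadjusted p under 0.05 in that test. In the fit of all 16339 tested probes, 4 probes passed it, and no probe of the members was among them.

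Between the replicate sets, all 9 tested members passed, 8 lower and 1 higher in replicates 4 to 6 than in replicates 1 to 3. ITGA1, among the 8, met the detection filter only through replicates 1 to 3, where it was high. Calls were common in this comparison: 25.2% of all tested genes were lower and 25.9% higher. The members' median difference was -0.44 on the log2 scale, beside 0.014 over all tested genes. The mean level of 6 macrophage markers moved with the sets, at 6.11 to 6.25 in replicates 4 to 6 and 6.68 to 6.84 in replicates 1 to 3, while PTPRC and MARCO were detected on no array. Fibroblast markers averaged 6.06 to 6.22 in replicates 4 to 6 and 6.19 to 6.34 in replicates 1 to 3. Between 16206 and 16617 probes were detected in replicates 4 to 6 and between 16067 and 16804 in replicates 1 to 3. The part of cell makeup or array run in these differences was not tested.

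ITGA3 and ITGA5 differed most. ITGA3 had a low of 6.36, a median of 6.78 and a high of 6.86 in replicates 4 to 6, against 7.63, 7.98 and 8.08 in replicates 1 to 3, so it was 2.35-fold lower (log2 difference -1.23, SE 0.083, adjusted p = 2.25e-12). ITGA5 had a low of 7.24, a median of 7.53 and a high of 7.59 in replicates 4 to 6, against 8.34, 8.54 and 8.60 in replicates 1 to 3, so it was 2.04-fold lower (-1.03, SE 0.070, adjusted p = 3.05e-12). These were the members lower by at least 2-fold, which 1.13% of tested genes were. The size depended on the background correction: in the authors' deposited normalised values, which have none, the log2 difference was -0.76 for ITGA3 and -0.74 for ITGA5, so neither reached that fold. In the same values it was -0.42 for ITGA2, -0.26 for ITGA1 and 0.28 for ITGA6, and all 5 passed the test.

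The collagen receptor subunits were also lower in replicates 4 to 6. ITGA2 had a low of 6.45, a median of 6.74 and a high of 6.92 in replicates 4 to 6, against 7.23, 7.48 and 7.61 in replicates 1 to 3 (difference -0.72, adjusted p = 6.32e-08). ITGA1 was detected on 0 of 6 arrays in replicates 4 to 6 and on 6 of 6 in replicates 1 to 3. Its measured means were 4.89 ± 0.15 in replicates 4 to 6 and 5.72 ± 0.16 in replicates 1 to 3 (SD, n = 6 each). The fitted log2 difference, which includes undetected signals, was -0.83 (limma adjusted p = 8.29e-06). As a bound, the level was at least 1.23-fold lower in replicates 4 to 6, and this bound was not itself tested. The probe met the detection filter only through replicates 1 to 3, where it was high, so its call is partly fixed by the filter.

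FN1 was lower in replicates 4 to 6 at all 3 probes. The log2 difference was -0.44 (adjusted p = 5.20e-05) at ILMN_1778237, -0.25 at ILMN_2366463 and -0.62 at ILMN_1675646. With both siRNA groups pooled, the sets overlapped at each of the 3 probes. Among NT siRNA arrays alone the sets were apart at each of the 3 probes. Among GATA4 siRNA arrays alone they were apart at ILMN_1675646 and overlapped at the other probes.

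ITGA6 went the other way from the rest. It averaged 6.49 ± 0.38 in replicates 4 to 6 and 5.85 ± 0.32 in replicates 1 to 3 (SD, n = 6 each), a difference of 0.64 (adjusted p = 1.41e-04). The sets overlapped with both siRNA groups pooled and among GATA4 siRNA arrays alone, and were apart among NT siRNA arrays alone.

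ITGB1 was lower by 0.20 at ILMN_1723467 (adjusted p = 2.91e-04), with no overlap, but its other probe differed by 0.051 in the other direction (adjusted p = 0.557). ITGAV (-0.16, adjusted p = 0.0294) and ITGB5 at its brightest probe (-0.11, adjusted p = 0.0347) overlapped between sets. The other tested ITGB5 probes were also lower in replicates 4 to 6. ILMN_2311166 differed by -0.11 with overlap (adjusted p = 0.0389 among all probes), and ILMN_1796755 by -0.22 without overlap (adjusted p = 0.00186). The ITGAV call ended with NT siRNA replicate 3 or 4 or GATA4 siRNA replicate 3 or 5 left out, and the ITGB5 call with NT siRNA replicate 1, 4 or 5 or GATA4 siRNA replicate 2, 3 or 4 left out (adjusted p up to 0.107). When arrays were scaled to equal medians in place of quantiles, the adjusted p was 0.0515 for ITGAV, 0.0625 for ITGB1 and 0.404 for ITGB5. Of the 9 members, 5 were lower with no overlap between sets (ITGA1, ITGA2, ITGA3, ITGA5 and ITGB1), where 14.3% of tested genes were. ITGA1 among them met the detection filter only through replicates 1 to 3. Of the 9 members, 0 were higher with no overlap, where 11.5% of tested genes were.

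**Figure D3:**
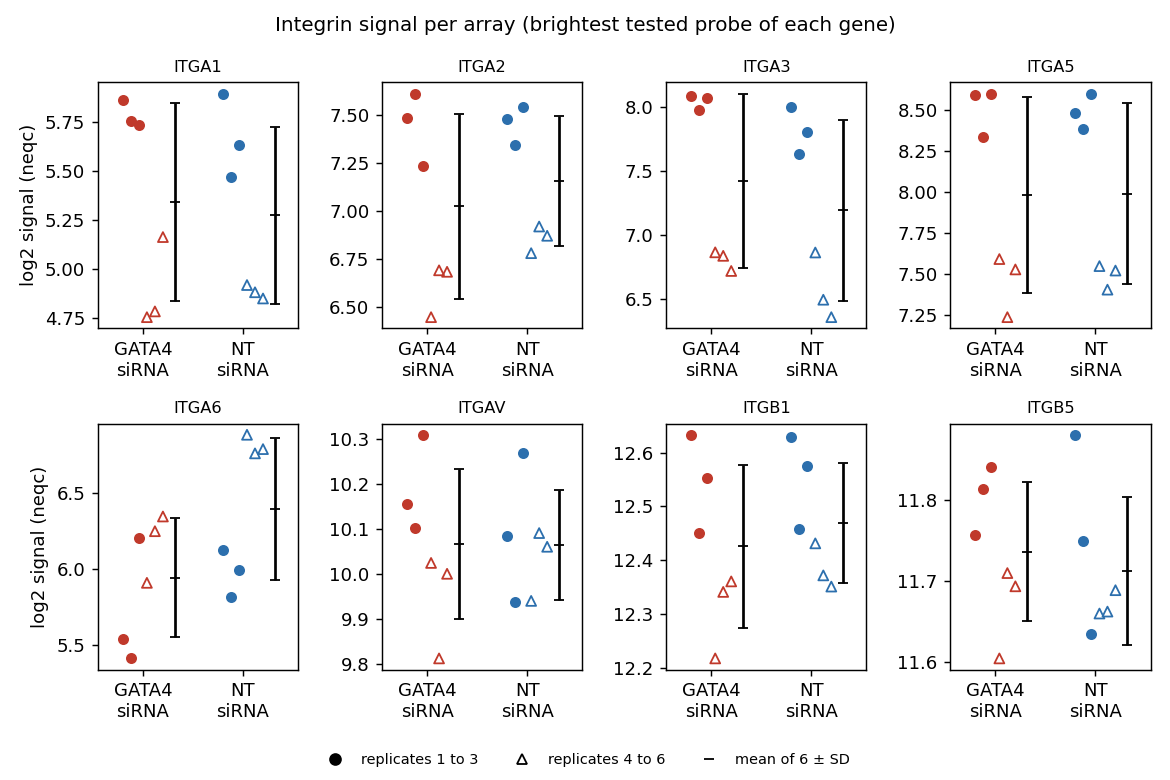
Normalised log2 signal of the 8 tested integrin genes on each array, GATA4 siRNA in red at the left and NT siRNA in blue at the right of each panel; filled circles are replicates 1 to 3, open triangles replicates 4 to 6, and bars the mean ± SD of 6 arrays. ITGA1, ITGA2, ITGA3, ITGA5 and, by a smaller difference, ITGB1 split by set in both siRNA groups, while ITGA6 has a higher mean in replicates 4 to 6.

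**Figure D4:**
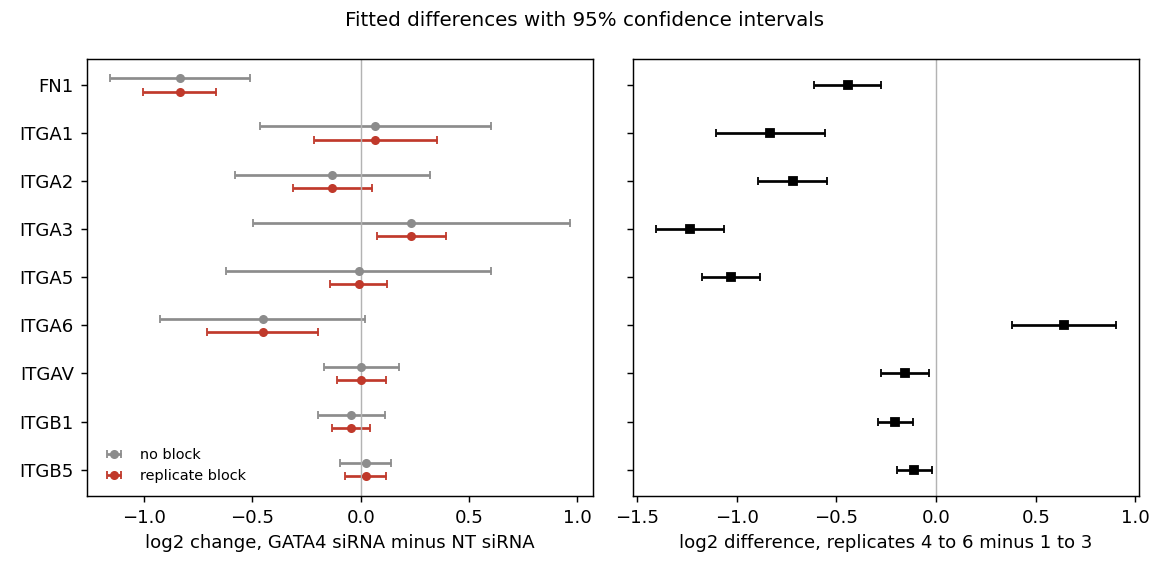
Fitted log2 differences with 95% confidence intervals for the 9 tested genes, GATA4 siRNA minus NT siRNA at the left (grey without a block, red with replicate number as a block) and replicates 4 to 6 minus 1 to 3 at the right. The block narrows the siRNA intervals, that of ITGA3 to 0.074 to 0.39, and the set differences of ITGA3 and ITGA5 lie below -0.8.

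Of 17 other subunit genes, 4 were tested: ITGA4 and ITGB2, known from leukocytes, ITGA9, a receptor for tenascin and other matrix proteins, and ITGAE, a partner of ITGB7. None passed after GATA4 siRNA in limma with or without the block (0 at an unadjusted p under 0.05 in either), with changes of 0.14 for ITGA4, 0.0023 for ITGA9, 0.029 for ITGAE and 0.021 for ITGB2. Between the sets ITGB2 was lower by 0.15 (adjusted p = 0.0254). ITGA11, ITGB7 and ITGA7 were detected on 4, 3 and 2 arrays, and the other 10 on none.

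The other integrin ligands held calls only in the blocked fit. Of 23 tested collagen, laminin and other ligand genes, 0 passed without the block (0 at an unadjusted p under 0.05). With it, 3 rose and 1 fell, where 2.65% of all tested genes were called higher and 3.77% lower. COL4A2, a chain of basement membrane collagen, averaged 9.49 ± 0.45 after GATA4 siRNA and 9.07 ± 0.42 after NT siRNA (SD, n = 6 each; log2 change 0.42, adjusted p = 1.04e-04). LAMA5, a laminin alpha chain, rose by 0.22 (adjusted p = 0.00309), and COL1A2, a chain of fibrillar collagen I, by 0.22 (adjusted p = 0.0187). FGG, the fibrinogen gamma chain, fell by 0.19 (adjusted p = 0.0154). The second probes of COL1A2 and FGG gave 0.23 and -0.19 with adjusted p of 0.0664 and 0.0815 among all probes. Between sets, 17 of the 23 were lower in replicates 4 to 6 and 4 higher, with a median of -0.45. Among all tested genes 25.2% were lower and 25.9% higher.

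Among 10 tested genes that bind or process fibronectin, 0 passed without the block (0 at an unadjusted p under 0.05) and 2 rose with it. With the block, 2.65% of all tested genes were called higher. CD44, a hyaluronan receptor that also binds fibronectin, rose by 0.28 (adjusted p = 9.32e-04), with 0.16 at another probe (adjusted p = 0.194). TGM2, a transglutaminase that crosslinks fibronectin and binds integrins at the cell surface, rose by 0.29 (adjusted p = 0.00513), and a pair of dimmer probes gave 0.15 and 0.082 (adjusted p = 0.131 and 0.698). TGM2 was also 2.47-fold lower in replicates 4 to 6 than in replicates 1 to 3. Between sets 5 of the 10 genes were lower and 2 higher, beside 25.2% and 25.9% of all tested genes.

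Inside the cell, 2 signalling kinases were called, in the blocked fit. Of 21 genes of integrin activation and actin linkage, 0 passed with or without the block (3 and 1 at an unadjusted p under 0.05). Among them PXN, the adaptor paxillin, had the lowest p, with a log2 change of 0.22 (adjusted p = 0.0846 with the block). Of 21 signalling genes, 0 passed without the block (0 at an unadjusted p under 0.05) and 2 fell with it: FYN, a Src family kinase, by 0.39 (adjusted p = 0.00988) and PAK2, a kinase activated by small GTPases, by 0.18 (adjusted p = 0.0327). With the block, 3.77% of all tested genes were called lower. Of 13 membrane partners and trafficking genes, 0 passed with or without the block (3 and 0 at an unadjusted p under 0.05); RAB25, a small GTPase that recycles ITGA5 with ITGB1, had 0.16 (adjusted p = 0.130 with the block). PLEC, the cytolinker plectin, was the 1 tested hemidesmosome gene and had 0.094 (adjusted p = 0.673 with the block).

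Between sets, activation and linkage genes were lower in 12 and higher in 3 of 21, and signalling genes lower in 5 and higher in 4 of 21. Partners and trafficking genes were lower in 10 and higher in 1 of 13. Among all tested genes 25.2% were lower and 25.9% higher, and the signalling counts stood close to these shares.

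The genes whose pattern over the 12 arrays was closest to that of FN1 were SYTL2, COPG1, LBH, GPAT3 and SLIT3. Likeness was the root mean square difference between log2 values centred on each gene's mean, which was 0.18 for SYTL2 and 0.23 for SLIT3, where FN1 itself deviated from its mean by 0.50. All 5 were lower after GATA4 siRNA with the block, by 0.60 to 0.78, as the choice by likeness fixes. Closest to ITGA6, which deviated by 0.45, were GOLIM4 (0.18), CARNMT1, DEPTOR, PBX2 and TRIM31 (0.21). Their log2 differences between sets were 0.44 to 0.75, and their changes after GATA4 siRNA ran from -0.55 for GOLIM4 to -0.16 for PBX2. These directions too follow from the choice by likeness.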

How the data were processed

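RNA of 12 HUH6 samples was hybridised to Illumina HT-12 v4 beadchips. The deposited scanner table gives each probe a linear signal intensity and a detection p-value (both named so per the file headers), and GenomeStudio was used per the submitters' processing notes. The lowest intensity is 82.2, so background was still included. The authors' normalised table is on the log2 scale. Its method was not given in the sources used here. The table lies within 0.0141 of the quantile normalised log2 intensities.

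Intensities were background-corrected and quantile normalised with neqc (offset 16) of limma 3.58.1 in R 4.3.3. Probe names came from the platform annotation, and a RefSeq table (GRCh38.p14) supplied current symbols: 30112 of 48106 probes have 1 symbol, 8 several and 17986 none. The test took probes detected (p under 0.01) on 6 or more arrays (16339 probes), and the brightest stood for its gene (10196 genes). Linear models (lmFit, then eBayes with a mean-variance trend) were two-sided, and p-values were adjusted by Benjamini-Hochberg over all genes, or over all tested probes where a single probe is reported, at a threshold of 0.05. The main model has no block. The set comparison had siRNA as a covariate. Folds for ITGA1 and GATA4, undetected in a group, are bounds from the lowest detected signal per array. Precision is limited by the number of arrays. The models were run on simulated arrays with a set difference, added siRNA changes and independent noise. The simulation held no effect of replicate number and no background floor, so it does not bear on the pairing or on signals near background.

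Equal replicate numbers were used as pairs. Deviations from the group means correlated between samples of the same number (Pearson's r across genes, 0.548 to 0.604). Other numbers of the same set correlated as much (0.549 to 0.629), and those of the other set from -0.625 to -0.537. These correlations part the sets but do not single out equal numbers, and the labels state no pairing. Results by pair therefore rest on an assumed matching within each set.

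The members, pathway and marker lists, tests and alternatives were chosen with earlier results of these data known. Named are all members and GATA4, up to 3 called genes per list and direction in each fit or else the gene with the lowest p, and the 5 genes closest in pattern to FN1 and to ITGA6. Alternatives changed the block, scaling, filter, probe rule, variance model and array weights, and left out arrays.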

Additional observations from a re-analysis of the deposited data

How the results depend on the processing

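FN1 stayed lower after GATA4 siRNA under all alternatives run, and its call without the block ended only on leaving out the 4 arrays named above. Against 72 genes called in all (72.2% lower), 654 were called with the replicate block, 784 with the set as block, 167 within replicates 1 to 3, 551 within replicates 4 to 6, 44 with no filter and 23 with equal medians (91.3% lower). Leaving out single arrays gave 35 to 57 calls, and leaving out pairs with the replicate block 445 to 587. Members called numbered 1 without a block, 2 with the replicate block, with the set as block and within replicates 4 to 6, and 0 to 2 with arrays or pairs left out. Member probes called lower numbered 2 without the replicate block and 4 with it. The third FN1 probe, with an adjusted p of 0.123 in the fit of all arrays without a block, passed with the replicate block, with the set as block and within each set. Genes whose change differed between sets numbered 0, against 2 on quantile normalised raw signals and on the authors' deposited values, 1 with the mean of probes, 1 with the robust variance, and 0 to 6 with arrays left out.

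Changes near 0 altered sign, none of them called. ITGA5 had 0.020 within replicates 1 to 3, ITGAV had -0.019 with array weights and -0.085 within replicates 4 to 6, and ITGB5 had -0.0010 within replicates 4 to 6. With arrays or pairs left out, ITGA1 ran from -0.035 to 0.19, ITGA5 from -0.13 to 0.14, ITGAV from -0.045 to 0.060 and ITGB5 from -0.013 to 0.058. The causes were not tested. Between sets the calls of ITGAV, ITGB1 and ITGB5 were the ones lost under another setting: with equal medians for all 3, with no filter for ITGAV and ITGB5, with the mean of probes for ITGB1 and with array weights for ITGAV. ITGA1 and ITGA6 were measured close to background, which limits their precision. The chip as a block was not run, since no chip is given in the sources used here.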
